A study of Mus musculus with 32 samples.

Results

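The genes described here were 10 genes of antigen presentation by the major histocompatibility complex (MHC), taken by gene name from the tables of 24952 genes. The 6 class I genes were *H2-K1* and *H2-D1* (the class I heavy chains), *B2m* (their light chain), *Tap1* and *Tap2* (the peptide transporter) and *Tapbp* (tapasin, which holds the empty class I molecule at that transporter). The 4 class II genes were *H2-Aa* and *H2-Ab1* (the alpha and beta chains of I-A), *H2-Eb1* (the beta chain of I-E) and *Cd74* (the invariant chain, which fills the class II groove until peptide is loaded). Each name matched 1 row of both tables, and all 10 genes were among the 13990 that passed the filter on low counts. RNA-seq had been carried out on regions cut by laser-capture microdissection from cross sections of the tibialis anterior (TA) muscle of male wild type C57BL/6JRj mice. Synaptic regions (NMJ), found by staining of acetylcholine receptors with α-bungarotoxin, and extra-synaptic regions (xNMJ) were collected at 10 months and at 30 months, with 8 libraries for each region at each age, named 10m or 30m and by region. All mice were kept in single cages on an AIN93M diet, for 2 to 3 months in the younger groups and 16 months in the older groups, so that age and time on the diet cannot be told apart. Many captured regions were pooled in each library, and whether the 8 libraries of a group came from 8 animals was not stated, so that p-values measure the spread between these libraries, which may be technical in part.

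Class I molecules are found on almost all nucleated cells and show peptides from the cytosol to CD8+ T cells. Class II molecules are mainly made by macrophages, dendritic cells and B cells and show peptides from endosomes to CD4+ T cells, while mature skeletal muscle fibres are known for low class I and for hardly any class II. Interferon gamma raises both classes, class II by way of the transactivator *Ciita*. The H-2b haplotype of C57BL/6 mice lacks a working alpha chain of I-E, so that *H2-Eb1* is transcribed without a partner chain.

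Coordinates are on GRCm38 (GENCODE M21), and those of *Cd74*, which lies on another chromosome, are not given. The class II genes *H2-Ab1* (chr17:34257689-34269419, plus strand), *H2-Aa* (chr17:34282744-34287823, minus strand) and *H2-Eb1* (chr17:34305867-34316674, plus strand) are neighbours in the MHC. *Tap1* (chr17:34187553-34197225) and *Tap2* (chr17:34203527-34216321), both on the plus strand, stand close to them. Further out are *Tapbp* (chr17:33915899-33929292, plus strand), *H2-K1* (chr17:33996017-34000347, minus strand) and *H2-D1* (chr17:35262730-35267499, plus strand), and *B2m* is at chr2:122147686-122153083 on the plus strand. The class II promoters are known for a conserved module with an X2 box and a Y box that *Ciita* acts through. The stretches of 250 bases before the RefSeq start sites of *H2-Aa* (chr17:34287824-34288073, minus strand) and *H2-Eb1* (chr17:34305617-34305866, plus strand), on build GRCm38.p6, are shown because both hold the Y box of that module and the results turn on their class. Capitals mark the X2 box TGACGTCA and the Y box CTGATTGG.
H2-Aa: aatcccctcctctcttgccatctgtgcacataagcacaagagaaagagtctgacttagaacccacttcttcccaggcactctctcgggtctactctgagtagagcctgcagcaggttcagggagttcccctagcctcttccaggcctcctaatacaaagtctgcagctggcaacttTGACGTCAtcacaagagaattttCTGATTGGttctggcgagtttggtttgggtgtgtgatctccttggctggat
H2-Eb1: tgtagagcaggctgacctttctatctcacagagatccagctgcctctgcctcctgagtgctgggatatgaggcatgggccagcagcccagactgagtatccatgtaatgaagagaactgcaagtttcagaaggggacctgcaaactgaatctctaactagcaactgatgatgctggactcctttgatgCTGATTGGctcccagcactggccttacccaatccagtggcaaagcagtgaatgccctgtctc
In *H2-Aa*, the X2 box lay at -74 to -67 and the Y box at -51 to -44 from the start site, and in *H2-Eb1* the Y box lay at -62 to -55. On both strands, the Y box was found in 3.83% and the X2 box in 1.55% of 32851 promoter windows of that length. Promoter windows of 7 members were read. *Cd74* was left out of this search, and no window was found for *H2-Ab1* and *Tap2*. The windows of *H2-D1* and *Tapbp* lay inside the gene spans given above, at another start site, and were read apart. That of *H2-D1* held the Y box (-53 to -46) and the NF-kB element GGGATTCCC (-170 to -162). Among the other class I genes, the NF-kB element GGGATTCCC was found in *H2-K1* (0.301% of all windows) and the interferon element GAAANNGAA in *B2m* (7.13% of all windows), and the Y box was also found in *Tap1*. None of the other windows held the GAS element TTCNNNGAA, which 7.02% of all windows held. A match describes these letters only.

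Class I heavy chains resemble each other in sequence, and reads that fit several transcripts had been split evenly between them. Of the stretches of 31 bases in the coding transcripts of *H2-K1*, 19.7% were also found in transcripts of other genes, most of them in *H2-D1* (14.3%). For *H2-D1*, the share was 26.0%, and 11.9% of all its stretches were found in *H2-K1*. The levels of these 2 genes are therefore uncertain, to an extent that these shares do not measure. The share was 0 for *B2m* and *H2-Aa*, 0.564% for *H2-Ab1*, 1.17% for *H2-Eb1*, 1.46% for *Cd74* and 7.59% for *Tap1*, which overlaps in sequence with *Psmb9* (6.11%). It was 1.44% for *Tap2* and 5.25% for *Tapbp*, whose shared stretches were spread over 625 other genes.

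Library totals were between 4026648 and 16516788 counts, and the median at 10 months was 6062117 for xNMJ and 9605869 for NMJ, against 6790011 and 9825357 at 30 months. Levels are given as CPM, that is, counts scaled to a common library total after correction of each total by the TMM method, which puts most genes of all libraries on a common level. On this scale, 3 counts in a library, the upper limit that a count of 0 allows, were between 0.153 and 0.933 CPM. These limits cover counting error only. The library 30m xNMJ replicate 5 stood apart from the rest of its group. It held 94.0 CPM of *Chrne*, the epsilon subunit of the acetylcholine receptor of adult NMJs, while the other 7 libraries of 30m xNMJ held at most 0.240 CPM and 30m NMJ libraries held at least 194 CPM. The edgeR values of the MHC genes on 30m xNMJ are given with and without it, while the fits on the TPM scale include it. The average insert size in the labels was also larger in most NMJ libraries: at 10 months it was between 79 and 108 nt in xNMJ and between 109 and 131 nt in 7 NMJ libraries (52 nt in replicate 8), and at 30 months between 79 and 109 nt in 7 xNMJ libraries (130 nt in replicate 5) and between 101 and 129 nt in NMJ.

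Class II genes were higher in NMJ than in xNMJ regions at 10 months, 3 of 4 past the threshold. *Cd74*, which lies on chromosome 18, was between 0.247 and 9.70 CPM (median 1.63) in 10m xNMJ and between 40.8 and 111 CPM (median 61.8) in 10m NMJ. Every NMJ library was thus above every xNMJ library, and the log2 fold change was 4.72 ± 0.81 (SE, n = 8 per group, edgeR adjusted p = 8.86e-05). *H2-Aa* was between 0 and 13.4 CPM (median 2.80) in 10m xNMJ and between 21.1 and 102 CPM (median 45.6) in 10m NMJ (log2 fold change 3.25 ± 0.63, edgeR adjusted p = 5.04e-04). Its partner chain *H2-Ab1* was between 1.42 and 26.4 CPM (median 10.5) in 10m xNMJ and between 29.2 and 124 CPM (median 60.7) in 10m NMJ (log2 fold change 2.39 ± 0.66, edgeR adjusted p = 0.0129). Both chains of I-A also separated the groups without overlap. *H2-Eb1*, the chain without a partner in this strain, was between 0 and 18.0 CPM (median 4.32) in 10m xNMJ and between 13.4 and 52.1 CPM (median 26.8) in 10m NMJ. Its groups overlapped, and its log2 fold change of 2.20 ± 0.79 missed the threshold (edgeR adjusted p = 0.0680). The median over the 4 class II genes was 2.82 on the log2 scale, beside 0.00 over all genes tested.

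The class I genes differed less between the regions, and only 1 of 6 passed the threshold. *H2-D1* was between 16.5 and 71.1 CPM (median 49.5) in 10m xNMJ and between 49.0 and 130 CPM (median 86.6) in 10m NMJ. It was the member that passed, at a log2 fold change of 0.89 ± 0.26 with overlapping groups (edgeR adjusted p = 0.0201). Without 10m NMJ replicate 4, its adjusted p was 0.0554 in edgeR, and with insert size as a covariate it was 0.114. *H2-K1* was between 8.53 and 68.1 CPM (median 38.4) in 10m xNMJ and between 41.4 and 68.9 CPM (median 46.4) in 10m NMJ (log2 fold change 0.46 ± 0.32, edgeR adjusted p = 0.423). The light chain *B2m* was between 56.6 and 177 CPM (median 92.2) in 10m xNMJ and between 65.4 and 209 CPM (median 145) in 10m NMJ (log2 fold change 0.39 ± 0.30, edgeR adjusted p = 0.487). Both differences were within the spread between libraries. *Tapbp* had a median of 19.6 CPM in xNMJ and 22.2 CPM in NMJ (log2 fold change 0.21 ± 0.37, edgeR adjusted p = 0.791). The transporter genes were scarce. *Tap1* had medians of 0.525 and 0.967 CPM in 10m xNMJ and 10m NMJ (log2 fold change 0.71 ± 1.0, edgeR adjusted p = 0.730). This value rested on single libraries: it was 0.14 without 10m NMJ replicate 6 and 2.37 without 10m xNMJ replicate 6, neither past the threshold. *Tap2* was between 0.178 and 1.42 CPM in 10m xNMJ and between 0.0508 and 6.44 CPM in 10m NMJ, where 3 libraries were below 0.5 CPM and the other 5 above 2.5 CPM, and its log2 fold change was 1.77 ± 0.69 (edgeR adjusted p = 0.0949). The median over the 6 class I genes was 0.58 on the log2 scale.

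In all, 4 of the 10 members rose in NMJ against xNMJ at 10 months and none fell, while 6.5% of all genes tested were called higher in that comparison. For 3 members, every NMJ library was above every xNMJ library in CPM, beside 2.22% of all genes tested.

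**Figure D1:**
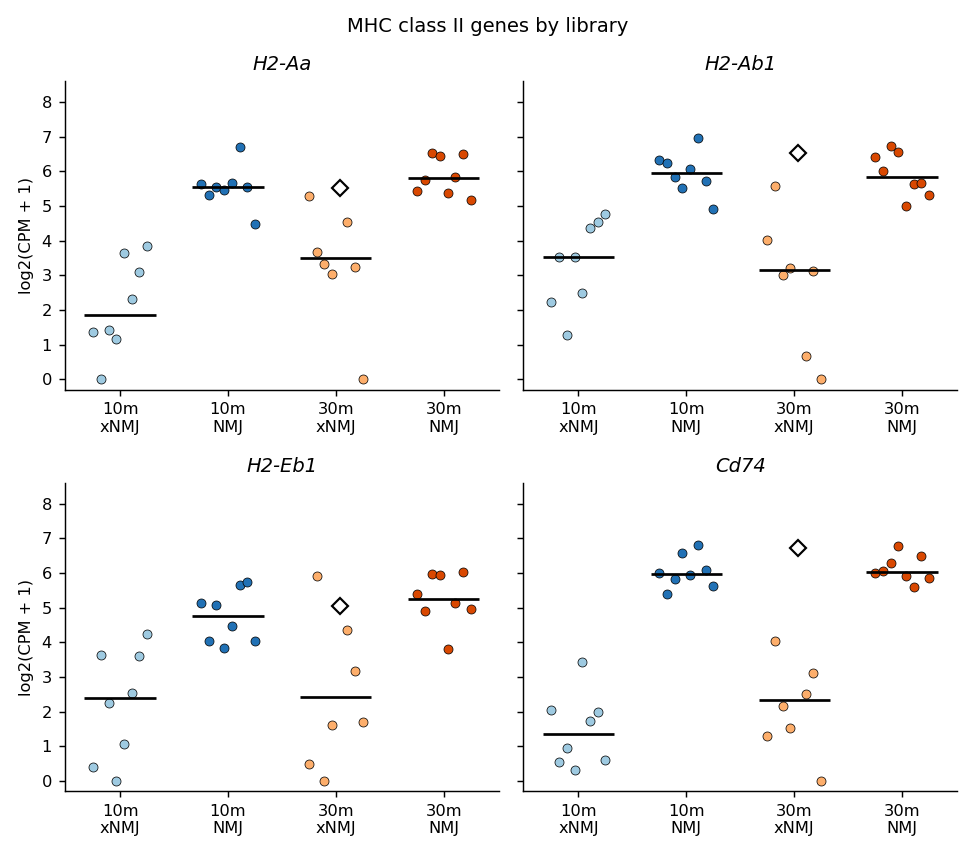
Level of the 4 class II genes in each library, as log2(CPM + 1), by group. Points are libraries (8 per group), bars are group medians, and the open diamond is 30m xNMJ replicate 5, which lies among the NMJ libraries for all 4 genes. *Cd74* separated 10m NMJ (40.8 CPM or more) from 10m xNMJ (9.70 CPM or less).

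At 30 months the same order was seen for the medians of the class II genes, but 30m xNMJ replicate 5 held these transcripts at the level of NMJ libraries. *Cd74* was between 0 and 15.5 CPM in 7 libraries of 30m xNMJ and at 104 CPM in replicate 5, and it was between 47.6 and 108 CPM (median 64.3) in 30m NMJ. Its log2 fold change was 2.00 ± 0.70 (edgeR adjusted p = 0.0663), and 3.83 ± 0.61 without replicate 5 (edgeR adjusted p = 3.82e-05). *H2-Aa* was between 0 and 44.4 CPM (median 10.3) in 30m xNMJ, of which replicate 5 was the highest and replicate 1 the next with 38.2 CPM, and between 35.0 and 92.0 CPM (median 54.6) in 30m NMJ. With all libraries it alone of the members passed the threshold at 30 months, its log2 fold change being 1.80 ± 0.59 (edgeR adjusted p = 0.0489), and 2.16 ± 0.62 without replicate 5 (edgeR adjusted p = 0.0178). This call was marginal: it was lost in 19 of 32 edgeR fits that left out 1 library, 11 of them libraries of the 30m groups, with adjusted p between 0.0178 and 0.0909 over all 32 fits, and with insert size as a covariate its adjusted p was 0.0707 and that of *Cd74* 0.0270. *H2-Ab1* was between 0 and 46.6 CPM in 7 libraries of 30m xNMJ, at 91.0 CPM in replicate 5, and between 30.7 and 105 CPM (median 56.4) in 30m NMJ. Its log2 fold change was 1.52 ± 0.64 (edgeR adjusted p = 0.148), and 2.38 ± 0.63 without replicate 5 (edgeR adjusted p = 0.00977). *H2-Eb1* was between 0 and 58.6 CPM (median 5.08) in 30m xNMJ, with replicate 2 the highest and replicate 5 the next (32.2 CPM), and between 12.9 and 63.9 CPM (median 37.3) in 30m NMJ. Its log2 fold change of 1.43 ± 0.76 missed the threshold with all libraries (edgeR adjusted p = 0.297) and without replicate 5 (1.68 ± 0.81, edgeR adjusted p = 0.209).

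Thus 1 of 10 members rose at 30 months, while 5% of all genes were called higher. Without 30m xNMJ replicate 5, 3 members rose, all of class II, while 6% of all genes were called higher. On the CPM scale, no member separated 30m NMJ from 30m xNMJ without overlap, beside 1.96% of all genes. Only *Cd74* did so without replicate 5, beside 2.55% of all genes. The 2 comparisons of regions share no library, but share 1 estimate of the spread. With libraries of equal number as a block, a pairing that was not stated, 3 members were called at 30 months. In that fit 10.9% of all genes were called in either direction.

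None of the class I genes passed the threshold at 30 months, with or without replicate 5. *H2-D1* was between 30.6 and 106 CPM (median 64.6) in 30m xNMJ and between 40.6 and 148 CPM (median 88.0) in 30m NMJ (log2 fold change 0.48 ± 0.26, edgeR adjusted p = 0.298). *H2-K1* was between 23.5 and 96.4 CPM (median 40.8) in 30m xNMJ and between 40.7 and 127 CPM (median 65.5) in 30m NMJ (log2 fold change 0.50 ± 0.32, edgeR adjusted p = 0.401). *B2m* was between 45.4 and 255 CPM (median 116) in 30m xNMJ, with replicate 5 the highest, and between 99.3 and 286 CPM (median 133) in 30m NMJ (log2 fold change 0.41 ± 0.30, edgeR adjusted p = 0.494). All these groups overlapped. Replicate 5 was also the highest of its group for *Tap2* (4.60 CPM) and the next to highest for *H2-K1* (85.4 CPM) and *Tapbp* (35.2 CPM), while *H2-D1* was at 58.1 CPM, below the median of its group, and *Tap1* was at 0. Its class I sum of 439 CPM was the highest of 30m xNMJ. *Tapbp*, *Tap1* and *Tap2* had log2 fold changes of 0.60 ± 0.37, 0.05 ± 0.96 and 0.11 ± 0.65, and that of *Tap1* was 1.04 without 30m xNMJ replicate 2. Without replicate 5, the log2 fold change was 0.67 ± 0.29 for *B2m*, 0.67 ± 0.32 for *H2-K1*, 0.45 ± 0.27 for *H2-D1*, 0.80 ± 0.37 for *Tapbp*, 0.36 ± 0.68 for *Tap2* and -0.15 ± 0.93 for *Tap1*, which turned in sign, with edgeR adjusted p of 0.157 (*B2m*) or more. The median of the class I genes was 0.44 on the log2 scale, and that of the class II genes 1.66, or 0.56 and 2.27 without replicate 5.

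**Figure D2:**
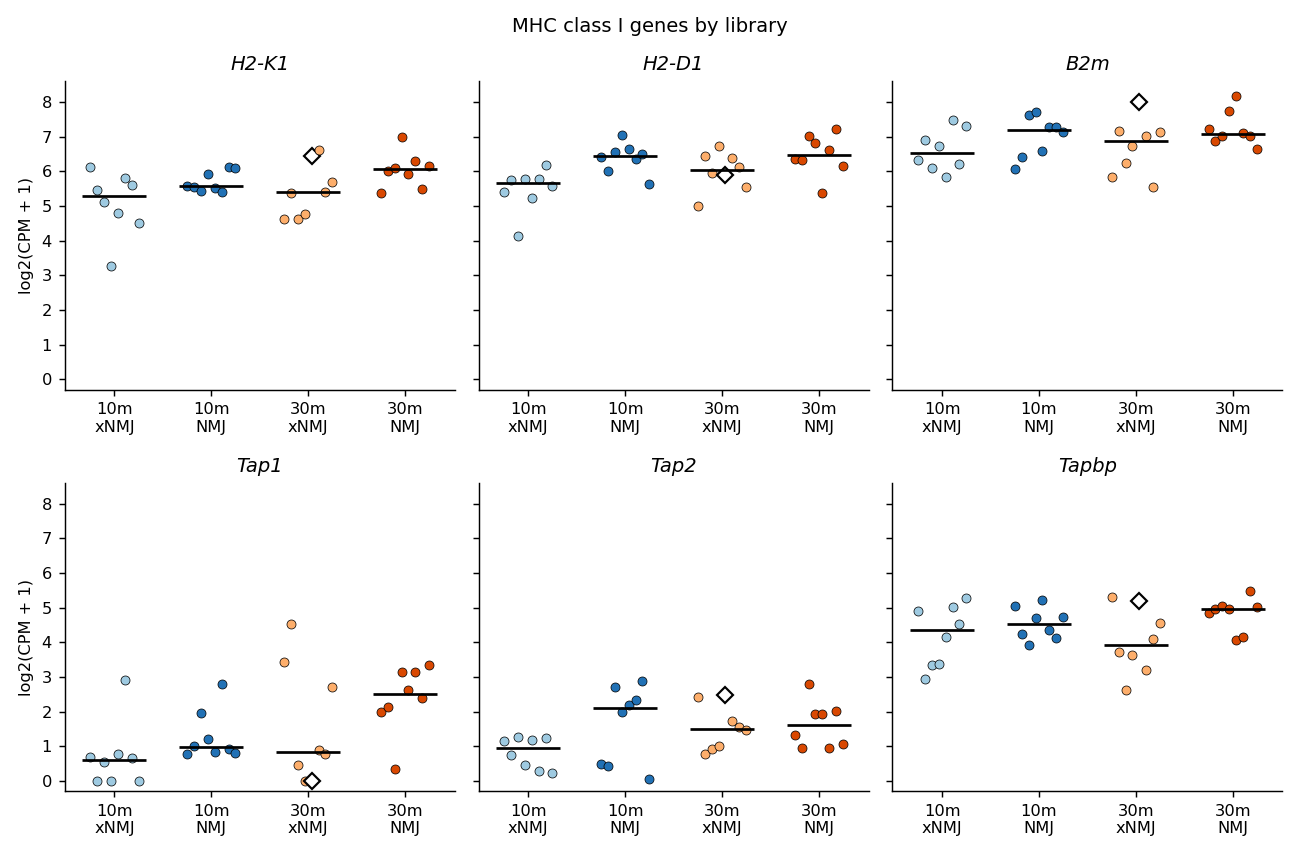
Level of the 6 class I genes in each library, as log2(CPM + 1), by group. Points are libraries (8 per group), bars are group medians, and the open diamond is 30m xNMJ replicate 5. The groups overlapped for all 6 genes at both ages, and *Tap1* and *Tap2* were near the counting limit in many libraries.

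The size of the differences depended on the scale in both classes. The TMM factors had medians of 0.831 for xNMJ and 1.21 for NMJ at 10 months, and 0.765 and 1.25 at 30 months, so that values without them would place NMJ libraries higher. On the deposited TPM values, as log2(TPM + 1), the median over all genes of NMJ against xNMJ was 0.41 at 10 months and 0.53 at 30 months. There, limma called 2625 genes higher and 237 lower at 10 months (91.7% higher), beside 909 and 706 in edgeR (56.3% higher). At 30 months limma called 3435 higher and 61 lower (98.3% higher), beside 700 and 595 in edgeR (54.1% higher). On that scale 8 members rose at each age, while 20.3% and 26.6% of the 12935 genes tested there were called higher in the order of age. Each class II gene was among them at both ages. *H2-Eb1* missed the threshold in edgeR at both ages. Here it had 2.90 ± 0.64 at 10 months (limma adjusted p = 0.00131) and 2.99 ± 0.64 at 30 months (limma adjusted p = 8.24e-04). *Cd74* and *H2-Ab1* missed it in edgeR at 30 months with all libraries. Here they had 3.97 ± 0.52 and 3.32 ± 0.64 (limma adjusted p = 5.08e-07 and 2.25e-04). *Cd74* was 4.44 above the shift of all genes at 10 months and 3.43 above it at 30 months, and the other class II genes were between 2.49 and 3.56 above it at 10 months and between 2.42 and 2.79 at 30 months. The class I genes were between 0.02 (*Tap1*) and 1.06 (*H2-D1*) above it at 10 months, and between -0.20 (*Tap2*) and 0.74 (*Tapbp*) at 30 months. For the scarce transporter genes these values depended on the constant added: as log2(TPM + 0.1), the differences from the shift were 0.90 for *Tap1* and 1.18 for *Tap2* at 10 months, and 1.03 and -0.06 at 30 months. Overlap of the groups also depended on the scale. *H2-Aa* overlapped at 30 months in CPM, but in TPM it was at most 40.6 in xNMJ and at least 52.1 in NMJ. *H2-Eb1* overlapped at 10 months in CPM, but in TPM it was at most 13.9 in xNMJ and at least 14.2 in NMJ. The share of all genes without overlap in TPM was not computed.

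With age, no member passed the threshold in either region. In NMJ, no gene of all those tested was called (0%), with 372 at an unadjusted p under 0.05, and in xNMJ 0.0429% were called. *Cd74* had nearly the same median at both ages in NMJ (61.8 and 64.3 CPM), and its log2 fold change was 0.07 ± 0.67 (edgeR adjusted p = 0.9998). The other class II genes had log2 fold changes in NMJ between -0.03 ± 0.62 (*H2-Ab1*) and 0.51 ± 0.75 (*H2-Eb1*). In xNMJ, the log2 fold change of *Cd74* between 30 and 10 months was 2.79 ± 0.76, which missed the threshold (edgeR adjusted p = 0.201, unadjusted p = 7.64e-04). Without replicate 5 it was 0.97 ± 0.58 (edgeR adjusted p = 0.582). *H2-Aa* was less dependent on that library, with 1.77 ± 0.61 in xNMJ (edgeR adjusted p = 0.329) and 1.41 ± 0.61 without it (edgeR adjusted p = 0.397), and *H2-Ab1* went from 0.84 ± 0.64 to -0.02 ± 0.60. *H2-Eb1* had 1.28 ± 0.78 in xNMJ (edgeR adjusted p = 0.653), and 1.03 ± 0.80 without replicate 5. Of the class I genes, *Tap1* had the largest difference with age, whose median in NMJ was 0.967 CPM at the younger and 4.72 CPM at the older age (log2 fold change 1.51 ± 0.98). In xNMJ, its libraries ran from 0 to 6.48 CPM at 10 months and from 0 to 22.2 CPM at 30 months (2.17 ± 1.03, edgeR adjusted p = 0.504, and 2.37 ± 0.99 without replicate 5), and its log2 fold change there was 1.18 without 30m xNMJ replicate 2 and 3.83 without 10m xNMJ replicate 6. *Tap2* in xNMJ had 1.38 ± 0.69 (edgeR adjusted p = 0.538), and 1.12 ± 0.70 without replicate 5. *H2-D1* in xNMJ had 0.53 ± 0.26 (edgeR adjusted p = 0.523), and 0.56 ± 0.27 without replicate 5.

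**Figure D3:**
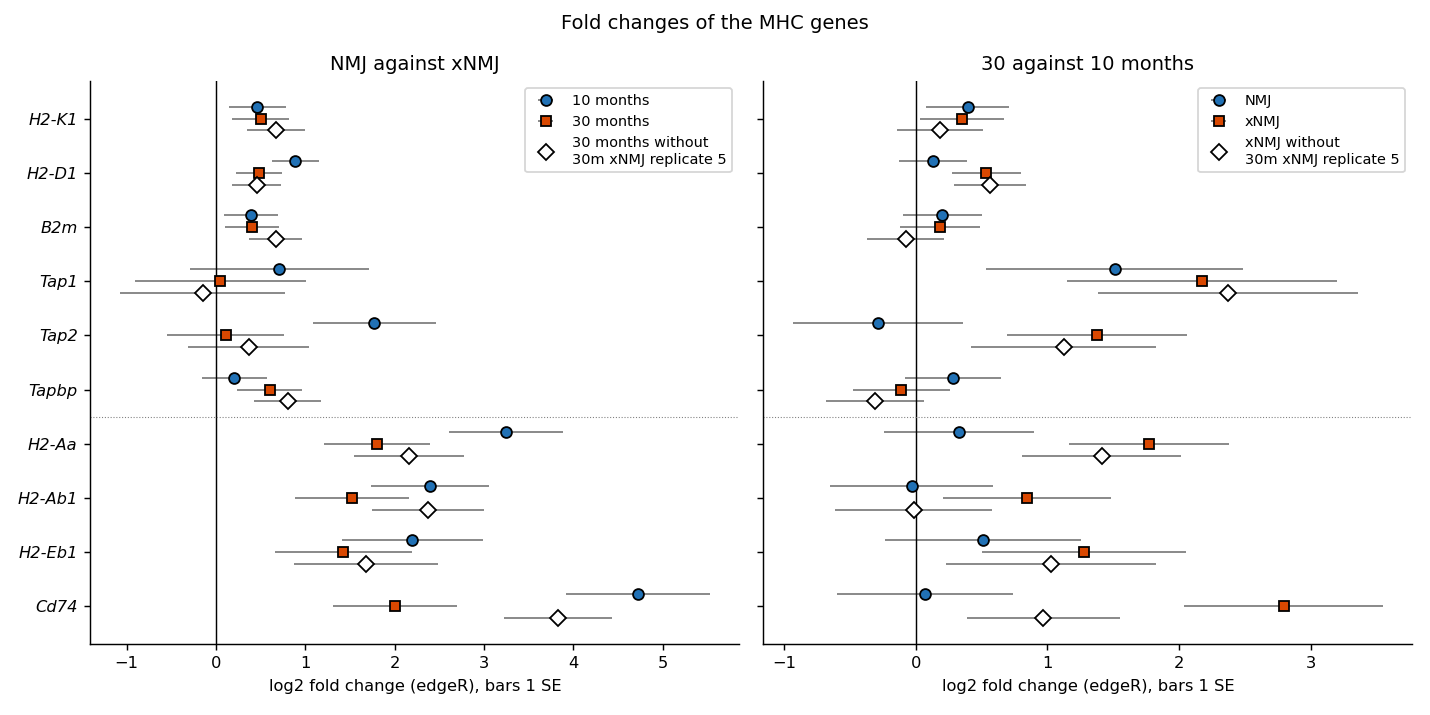
Log2 fold changes of the 10 genes from edgeR, with bars of 1 SE, for NMJ against xNMJ (left) and 30 against 10 months (right); the dotted line divides class I (above) from class II (below). Open diamonds leave out 30m xNMJ replicate 5, which moved *Cd74* from 2.00 to 3.83 between regions at 30 months and from 2.79 to 0.97 between ages in xNMJ.

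The difference between the regions was compared between the ages by the interaction of age and region. No member passed, and no gene of all those tested was called (0%), with 708 at an unadjusted p under 0.05. *Cd74* had an interaction of -2.72 ± 1.0 on the log2 scale (edgeR adjusted p = 0.815, unadjusted p = 0.0100), that is, a smaller excess in NMJ at 30 months. Without replicate 5 it was -0.90 ± 0.77 (edgeR adjusted p = 0.9999). The other class II genes were between -1.45 ± 0.83 (*H2-Aa*) and -0.77 ± 1.07 (*H2-Eb1*), and the class I genes between -1.66 ± 0.94 (*Tap2*) and 0.39 ± 0.52 (*Tapbp*). Without replicate 5, the interaction was -1.09 ± 0.82 for *H2-Aa*, -0.52 ± 1.09 for *H2-Eb1* and -0.02 ± 0.82 for *H2-Ab1*, which had been -0.87 ± 0.89 with all libraries, and the class I genes were between -1.41 ± 0.95 (*Tap2*) and 0.59 ± 0.52 (*Tapbp*).

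Levels can be compared between genes only per length, for which the deposited TPM values were used. In 10m NMJ, *B2m* had the highest median level (228 TPM), followed by *H2-Ab1* (115 TPM), *H2-Aa* (67.6 TPM), *Cd74* (66.9 TPM), *H2-D1* (65.7 TPM), *H2-K1* (42.5 TPM), *H2-Eb1* (32.9 TPM), *Tapbp* (11.1 TPM), *Tap2* (1.93 TPM) and *Tap1* (0.473 TPM). *H2-Aa*, *Cd74* and *H2-D1* did not differ beyond their spread, as their ranges were 28.1 to 168, 46.5 to 135 and 34.9 to 97.2 TPM. In 10m xNMJ, *B2m* was again the highest (105 TPM), but the class I heavy chains *H2-K1* (25.8 TPM) and *H2-D1* (22.9 TPM) came next, ahead of *H2-Ab1* (11.9 TPM) and *Tapbp* (7.12 TPM). *H2-Eb1* (4.22 TPM), *H2-Aa* (3.23 TPM) and *Cd74* (1.46 TPM) were below them, with overlapping ranges. The invariant chain thus moved from the eighth place in 10m xNMJ to the fourth in 10m NMJ. At 30 months, median *B2m* was 128 TPM in xNMJ and 242 TPM in NMJ, and median *Cd74* was 3.25 and 78.4 TPM. Without replicate 5, the xNMJ medians were 112 TPM for *B2m* and 2.61 TPM for *Cd74*.

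Ratios between the class II genes were taken within each library. Over the 8 libraries of 10m NMJ, the TPM of *H2-Ab1* was between 1.13 and 2.28 times that of *H2-Aa* (median 1.56), and that of *Cd74* between 0.784 and 1.66 times (median 0.939). In 30m NMJ, these ratios were between 0.647 and 2.37 (median 1.30) and between 0.623 and 1.19 (median 0.932). *H2-Eb1* had a median of 0.492 times *H2-Aa* in 10m NMJ and 0.565 times in 30m NMJ. In xNMJ, all 4 genes reached 10 counts in only 2 libraries at 10 months and 3 at 30 months.

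**Figure D4:**
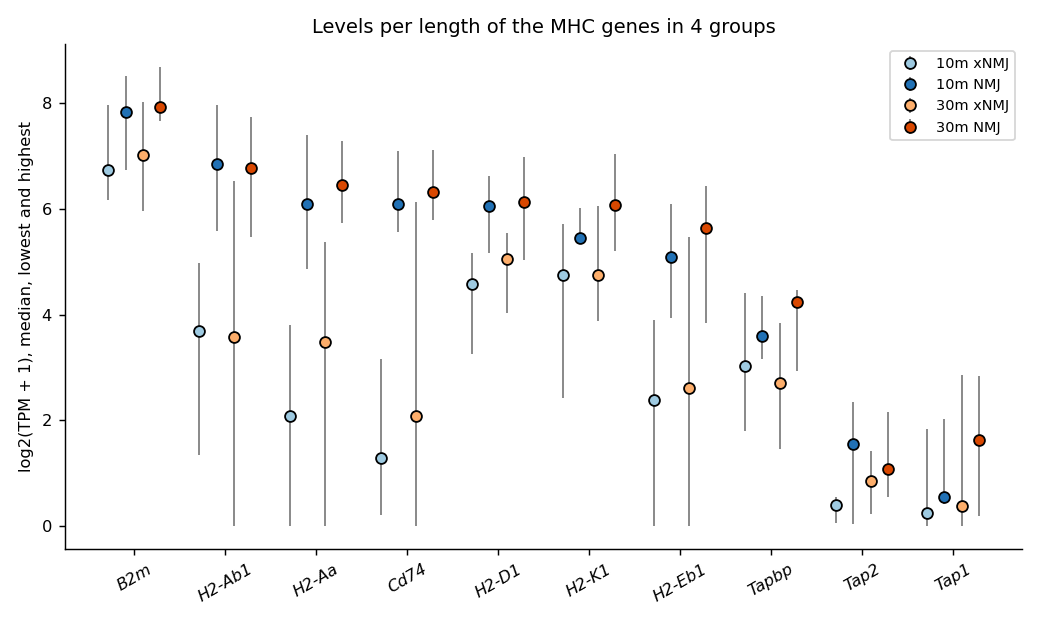
Level per length of the 10 genes, as log2(TPM + 1), in the 4 groups, ordered by the median in 10m NMJ. Points are medians of 8 libraries and lines run from the lowest to the highest library. *B2m* had the highest median in all groups. The medians of the class II genes were lower in xNMJ than in NMJ at both ages, but the ranges of *Cd74*, *H2-Ab1* and *H2-Eb1* overlapped at 30 months.

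Other genes of both pathways were read from lists chosen for this description. Among the enzymes and regulators of class II loading, 3 of 13 tested genes rose and 1 fell in NMJ at 10 months (median log2 fold change 0.01), while 6.5% of all genes tested were called higher and 5.05% lower. At 30 months, 5% were called higher and 4.25% lower, and without 30m xNMJ replicate 5 these shares were 6% and 4.59%. *Ctss*, the protease that cuts the invariant chain, was between 0 and 6.14 CPM in 10m xNMJ and between 10.7 and 35.5 CPM in 10m NMJ, with no overlap (log2 fold change 2.73 ± 0.61, edgeR adjusted p = 0.00239). *Ifi30*, a thiol reductase of endosomes, had 3.38 ± 0.93 (edgeR adjusted p = 0.0125), and *Lgmn*, an endosomal protease, had 1.08 ± 0.35 (edgeR adjusted p = 0.0400). The lysosomal cathepsin *Ctsb*, which muscle itself expresses, fell by 0.70 on the log2 scale (edgeR adjusted p = 0.00194). At 30 months *Lgmn* rose (1.55 ± 0.36, edgeR adjusted p = 0.00338) and *Ctsl*, the gene of the list with the highest mean TPM, fell (log2 fold change -0.75 ± 0.24, edgeR adjusted p = 0.0445). Without 30m xNMJ replicate 5, 3 genes rose and none fell: *Lgmn*, *Ctss* (2.33 ± 0.58, edgeR adjusted p = 0.00603) and *H2-DMa*, a chain of the peptide exchange factor (4.69 ± 1.19, edgeR adjusted p = 0.00717). *Ciita* itself was low everywhere, with group medians between 0.823 and 1.26 CPM, and had log2 fold changes of -0.90 ± 0.73 at 10 months and -0.00 ± 0.76 at 30 months, neither past the threshold.

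Of the class I loading and supply genes, 2 of 11 tested rose at both ages, beside the 6.5% and 5% of all genes called higher. These were the chaperones *Calr* and *Canx*, which assist the folding of class I and of many other glycoproteins. For *Calr* the log2 fold changes were 0.58 ± 0.17 and 0.82 ± 0.17 in the order of age (edgeR adjusted p = 0.0201 and 0.00139), and *Canx*, which had the highest mean TPM of that list, 0.47 ± 0.16 and 0.49 ± 0.16 (edgeR adjusted p = 0.0457 and 0.0474). Without 30m xNMJ replicate 5, *Canx* missed the threshold at 30 months (edgeR adjusted p = 0.0885) and *Pdia3*, a partner of tapasin, passed it (edgeR adjusted p = 0.0434). Thus 2 of 11 rose there as well, beside 6% of all genes. The immunoproteasome genes *Psmb8* and *Psmb9* had log2 fold changes of 0.22 ± 0.57 and -1.19 ± 0.99 at 10 months, neither past the threshold. Among 13 tested class I heavy chains other than *H2-K1* and *H2-D1*, only *H2-T22* rose at 10 months (2.31 ± 0.64, edgeR adjusted p = 0.0135) and none at 30 months, so that 1 of 13 stood beside the 6.5% of all genes called higher at 10 months. The most abundant of them, *H2-T23*, had medians between 62.2 and 83.1 CPM in the 4 groups. The sequence that these genes share with other transcripts was not measured, so that their levels may be uncertain to an unknown extent.

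Of the interferon genes, 4 of 28 tested rose at 10 months and 1 at 30 months, beside the 6.5% and 5% of all genes called higher. Their median log2 fold change was 0.08 at both ages, and 0.33 at 30 months without 30m xNMJ replicate 5. *Irf8*, a transcription factor of macrophages and dendritic cells, was between 0 and 6.27 CPM in 10m xNMJ and between 37.3 and 57.2 CPM in 10m NMJ, with no overlap (log2 fold change 4.91 ± 0.72, edgeR adjusted p = 9.69e-06). It was also the gene called at 30 months (3.69 ± 0.66, edgeR adjusted p = 2.49e-04), where replicate 5 of 30m xNMJ was at 16.9 CPM and the other 7 libraries at or below 4.33 CPM, and it was 4.95 ± 0.64 without replicate 5. *Ifnar1*, a receptor chain for type I interferon, had 1.83 ± 0.47 at 10 months (edgeR adjusted p = 0.00673), and *Oasl2* had 2.80 ± 0.93 (edgeR adjusted p = 0.0430). *Cxcl10* was at 0 in all 8 libraries of 10m xNMJ and in 5 of 8 of 10m NMJ, with 37.2 CPM in the highest, so that its call rested on 3 libraries (edgeR adjusted p = 0.0150). The signal transducer *Jak1* had the highest mean TPM of this list, and its log2 fold change was 0.40 ± 0.23 at 10 months (edgeR adjusted p = 0.320). Among 6 tested genes of co-stimulation and recognition, *Cd86*, a ligand that activates T cells, rose at 10 months (3.48 ± 0.91, edgeR adjusted p = 0.00854) and *Cd274*, an inhibitory ligand, fell (-1.30 ± 0.34, edgeR adjusted p = 0.00820), beside the 5.05% of all genes called lower. At 30 months none of these 6 passed, and without 30m xNMJ replicate 5 *Cd274* and the receptor *Klrk1* were lower in NMJ (log2 fold change -1.01 ± 0.31 and -2.22 ± 0.72). None of the genes in these 5 lists passed the threshold for age or for the interaction.

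In bulk libraries, more cells of a type and more RNA per cell cannot be told apart, and the markers of the cells known for class II were therefore read beside these genes. Of 10 tested macrophage markers, 5 rose in NMJ at each age, beside 6.5% of all genes called higher at 10 months and 5% at 30 months. Without 30m xNMJ replicate 5, 5 rose at 30 months, beside 6% of all genes. The summed level of the 11 listed markers was between 9.18 and 61.5 CPM in 10m xNMJ and between 222 and 568 CPM in 10m NMJ. At 30 months it was between 9.46 and 122 CPM in xNMJ, with replicate 5 the highest, and between 178 and 570 CPM in NMJ. Its most abundant gene was *Lyz2*, its median at 10 months being 2.24 CPM for xNMJ and 170 CPM for NMJ. *Mrc1* rose at both ages (log2 fold change 3.84 ± 0.82 and 3.64 ± 0.80), and *Cd68* at 10 months (5.35 ± 1.26, edgeR adjusted p = 0.00345). *Adgre1*, which encodes the macrophage marker F4/80, was at 0 in all 8 libraries of 30m xNMJ, replicate 5 included, and between 3.28 and 18.7 CPM in 30m NMJ.

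The general leukocyte markers had none of 6 genes past the threshold at either age. Their summed level was between 4.82 and 97.8 CPM in 10m xNMJ and between 31.8 and 70.1 CPM in 10m NMJ, at 30 months between 28.7 and 81.1 CPM in xNMJ, replicate 5 the highest, and between 27.9 and 81.4 CPM in NMJ, and *Lcp1* was the most abundant. Dendritic cell markers had none of 4 tested genes past the threshold, and their most abundant gene, *Xcr1*, had medians between 6.54 and 7.36 CPM in all 4 groups. B cell markers had none of 2 tested genes past it and summed to 9.15 CPM or less in both 10m groups, while the sum in 30m NMJ replicate 1 was 196 CPM, of which *Jchain*, the joining chain of antibodies, was 193 CPM. T and NK cell markers had none of 3 tested genes past it, with *Cd3d* the most abundant, and their sums were 32.3 CPM or less in all libraries. Of the neutrophil markers, *Cxcr2* being the most abundant, 1 of 4 was lower in NMJ at each age, beside the 5.05% and 4.25% of all genes called lower. Besides *Adgre1*, the markers at 0 in a whole group were *Ncr1* in 10m NMJ, *Nkg7* in 10m xNMJ and *Klrb1c* in both xNMJ groups.

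Other cell types moved with region as well, while 6.5% of all genes were called higher at 10 months and 5% at 30 months. All 6 Schwann cell markers rose at both ages, with summed levels between 8.42 and 30.2 CPM in 10m xNMJ and between 222 and 311 CPM in 10m NMJ. Of 6 markers of fibro-adipogenic cells, the fibroblast-like progenitors of muscle, 5 rose at 10 months and 4 at 30 months, with *Dcn* the most abundant. All 6 genes of NMJ nuclei rose at both ages, led by *Chrna1*, and their sum in 30m xNMJ replicate 5 was 394 CPM, beside a median of 34.2 CPM in that group. Of 8 endothelial markers, 1 fell at 10 months and 3 at 30 months, with *Flt1* the most abundant, while 5.05% and 4.25% of all genes were called lower. Of 5 mural cell markers, 1 rose at 10 months and 1 rose and 1 fell at 30 months (none rose without 30m xNMJ replicate 5), led by *Rgs5*. Of 6 muscle fibre genes, led by *Tnnt3*, 3 fell at each age. The part of any of these cell types in the levels of the MHC genes was not tested.

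**Figure D5:**
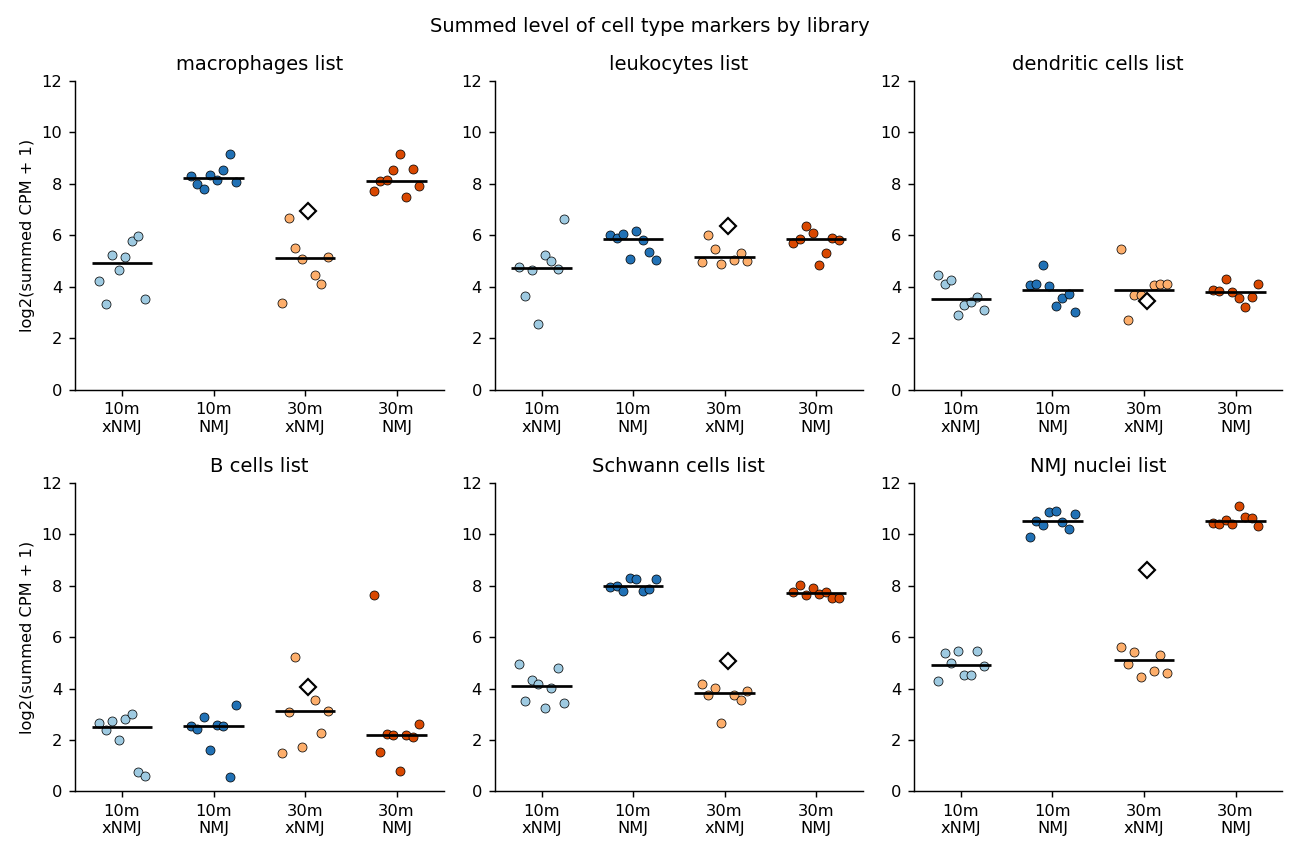
Summed level of 6 marker lists in each library, as log2(summed CPM + 1), by group. Points are libraries (8 per group), bars are medians, and the open diamond is 30m xNMJ replicate 5. Macrophage sums were 222 CPM or more in 10m NMJ and 61.5 CPM or less in 10m xNMJ, while dendritic cell sums overlapped between all groups.

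With the group means removed, correlations between the class II genes were higher than between the class I genes over the 32 libraries. Pearson's r between pairs of class II genes had a median of 0.476 (6 pairs, 0.219 to 0.659), between pairs of class I genes 0.0822 (15 pairs, -0.202 to 0.290) and between the classes 0.167 (24 pairs, -0.126 to 0.479). Without 30m xNMJ replicate 5, a choice made after seeing the data, these medians were 0.342 (0.148 to 0.638), 0.0913 (-0.231 to 0.290) and 0.158 (-0.308 to 0.428). These values share libraries and depth and are descriptions only. The genes outside the members most like the mean of class II were *Idnk* (r = 0.69), *Ube2s* (0.68), *Prkch* (0.68), *C5ar1* (0.67) and *Ezr* (0.66). They were picked as the highest r among the 13990 genes tested, members left out. The r that chance alone gives at the top of such a search was not computed, so no likeness in function is read from these genes. Without 30m xNMJ replicate 5 their r were between 0.59 and 0.71. Read in the same way, the mean of class II had an r of 0.61 with the leukocyte list, 0.37 with NMJ nuclei, 0.24 with macrophages and -0.41 with T and NK cells, and between -0.22 and 0.26 with the other marker lists. That with NMJ nuclei rested on replicate 5, being -0.17 without it, and that with Schwann cells went from 0.17 to -0.24, while those with leukocytes, macrophages and T and NK cells were 0.56, 0.22 and -0.38. Without replicate 5, the r with fibro-adipogenic cells also went from 0.26 to 0.05 and that with neutrophils from 0.12 to -0.02. The genes most like the mean of class I, picked by the same kind of search and with the same limit, were *Cyb561* (r = 0.72), *Tppp3* (0.62), *Luc7l* (0.62), *Gm12185* (0.61) and *Igfbp7* (0.61). The r of the mean of class I with the marker lists was between -0.31 (muscle fibre) and 0.40 (mural cells), or -0.32 and 0.41 without replicate 5.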

How the data were processed

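Groups were taken from the sample labels. SMART-Seq v4 libraries had been sequenced single-end. Per the authors' methods, reads were trimmed with Cutadapt 1.9.1 and assigned with kallisto 0.43.1 to protein-coding transcripts of GRCm38, a read on n transcripts adding 1/n to each, and transcripts were summed per gene. As deposited, counts are whole and raw, with 1 value for each gene and library. TPM values, as deposited, had been scaled by the authors for transcript length and library total. No strand was used.

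The counts of 32 libraries, between 4026648 and 16516788 in total, entered 1 model in edgeR 4.0.16, run under R 4.3.3 (TMM, genes with at least 1 CPM in at least 8 libraries, quasi-likelihood test of 4 groups in 1 fit, two-sided, Benjamini-Hochberg over all 13990 genes tested, threshold 0.05). Each SE given with edgeR was derived as the size of the log2 fold change over the square root of the F statistic of that test. It thus rests on the spread over all groups in the fit, not only on the 2 groups compared. The script was tested on simulated data. Alternatives were DESeq2 1.42.0, its size factors, no filter, 2 groups only, a replicate block, the insert size in the labels as a covariate, limma 3.58.1 on log2(TPM + 1) and log2(TPM + 0.1), and leaving out each library. Likeness used log2 CPM with a prior count of 2. Motifs were searched on both strands of RefSeq promoters (GRCm38.p6).

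The members, the lists and the tests were chosen with earlier results of these data known. All members are named, as are, of each pathway list, the genes past the threshold (at most 8) and that with the highest mean TPM, and, of each marker list, that with the highest mean CPM and those at 0. The leading gene of 1 marker list is not reported here. *Ciita*, *Psmb8*, *Psmb9*, *H2-DMa*, *Pdia3*, *Klrk1* and other markers were named after their values were seen.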

Additional observations from a re-analysis of the deposited data

Results flagged for a closer look

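In 9 of 40 sets of a member in a group, the highest library was far from the others by Dixon's criterion for 8 samples. For normally distributed values, chance meets this criterion at either end in about 1 of 20 sets. In 30m xNMJ, replicate 5 was flagged for *Cd74* (104 CPM) and *B2m* (255 CPM), and replicate 2 for *Tap1* (22.2 CPM). In 10m xNMJ, these were replicate 5 for *Cd74* (9.70 CPM) and replicate 6 for *Tap1* (6.48 CPM). In 10m NMJ, replicate 6 stood apart for *H2-Aa* (102 CPM) and for *Tap1* (5.91 CPM). In 30m NMJ, these were replicate 4 for *H2-K1* (127 CPM) and replicate 3 for *Tap2* (5.96 CPM). *Tap1* was thus far from the others in 1 library of 3 of the 4 groups.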

How the results depend on the processing

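Over all alternatives, no member's log2 fold change reversed a call; 1932 values kept their side of the threshold, 34 passed it newly and 24 no longer passed. The number of members called at 10 months was 4 (11.5% of all genes called in either direction), 6 with DESeq2 (14.6%), 5 with only the 2 groups compared (11.3%), 3 with insert size (8.11%), and 8 and 7 with limma on log2(TPM + 1) and log2(TPM + 0.1). At 30 months it was 1 (9.26%), and 0 without a filter (5.05% of 24167 genes), 0 with only the 2 groups compared (8.2%), 2 with DESeq2 (12.2%), and 8 and 8 with limma, which called 20.3% and 20.6% of 12935 genes higher at 10 months and 26.6% and 27.2% at 30 months. With insert size as a covariate *H2-D1* was not called at 10 months, and at 30 months *Cd74* was called in place of *H2-Aa*. Of all genes, limma called 2862 and 2895 at 10 months (edgeR 1615) and 3496 and 3569 at 30 months (edgeR 1295). With age in NMJ, limma on log2(TPM + 1) called 3 genes and edgeR and DESeq2 0. In xNMJ edgeR called 6, DESeq2 82, the fit with insert size 2, and the fit of 2 groups and both limma fits 0. DESeq2 called 9 genes in the interaction. Leaving out 1 library at a time gave 3 to 5 members at 10 months and 0 to 3 at 30 months, and 1420 to 1705 and 1100 to 1476 of all genes. It gave 0 to 7 genes for age in xNMJ and 0 to 1 for the interaction. *Cd74*, *H2-Aa* and *H2-Ab1* were called at 10 months in all 32 of these fits, *Cd74* and *H2-Ab1* at 30 months only without 30m xNMJ replicate 5, and *Tap2* and *H2-Eb1* at 10 months in some.

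Libraries of equal number were not stated to be paired. The correlation of their deviations had a median of 0.0921 at 10 months and 0.0499 at 30 months (-0.0158 and -0.00370 for libraries of different number), and 4 of 8 NMJ libraries correlated best with their own number at each age. With the replicate block, 4 members were called at 10 months, 3 at 30 months and 0 genes for age in xNMJ, while of all genes 1829 were called at the younger age (13.1%, beside 1615 without the block) and 1531 at the older (10.9%, beside 1295). *Tap1* and *Tap2* were near the counting limit in many libraries, which limits their precision.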
